A study of Homo sapiens with 8 samples.

Results

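The 39 HOX cluster genes were taken from a table of 63816 gene entries as those whose symbol is HOX followed by A, B, C or D and a number. This rule matched 40 entries, and for HOXC5, the symbol that stood on more than 1 entry, the entry with the higher mean was used (ENSG00000172789), while the other (ENSG00000273046) lay between 0 and 1.64 TPM. TPM is a transcript level scaled to transcript length and to a fixed total per sample. Expression had been measured by RNA-seq in Caco-2, an established line from a human colorectal adenocarcinoma, as 4 samples with the empty vector pcDNA3.1 and 4 samples with the same vector carrying SIGLEC12, the gene for Siglec-XII. Both groups had been stably transfected and selected with G418, and how many clones a group holds is not given in the sources used here. Since each came from its own transfection, Siglec-XII and the transfected population it was made in cannot be told apart. Nothing in the labels says that the samples of a group came from separate cultures, so the p-values measure only the spread between these samples, which may be technical.

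HOX genes encode homeodomain transcription factors that give cells along the body axis their position. They lie in clusters, and each gene is known by its cluster letter and by its paralogue number, which is shared by the genes of the different clusters that descend from the same ancestral gene. Low numbers (1 to 3) are used toward the head, middle numbers (4 to 8) in the trunk and high numbers (9 to 13) toward the tail and in the hindgut, and the order along the chromosome follows the order along the axis. Cells grown from adult tissue often keep a HOX pattern that reflects where in the body they arose. Cdx proteins, retinoic acid, Polycomb and Trithorax complexes set this pattern in the embryo, and HOX proteins bind DNA with TALE homeodomain partners.

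The transfected gene, SIGLEC12, lay between 0.0399 and 0.122 TPM with the empty vector and between 1582 and 1734 TPM with Siglec-XII. The depth behind each value is unknown from the table, and the labels give about 25000000 to 40000000 paired reads of 100 bp per sample. Correlations between samples, which are across genes, ran from 0.979 to 0.984 within a group and from 0.972 to 0.980 between groups, and 0 columns were identical. Of 13 markers of colon epithelium, 4 were at 1 TPM or more in all 8 samples: the gut regulators CDX1 and CDX2, the keratin KRT8 and the adhesion molecule EPCAM. KRT20, a keratin of differentiated intestinal cells, was listed at 0 in all 8 samples, CDH17 reached at most 0.333 TPM and the antigen CEACAM5 at most 0.0733 TPM. Of 14 trophoblast markers, 10 were at 1 TPM or more in all 8 samples, among them GATA3 at 331 to 479 TPM and the steroid enzyme HSD3B1 at 316 to 370 TPM. The others were CGB3 at no more than 0.234 TPM, CGB5 at no more than 0.128 TPM, CGA at 0.127 to 1.35 TPM and ERVFRD-1 at 0.546 to 2.48 TPM. Of 8 fibroblast markers, 5 passed the same level, and of 5 prostate markers 1 did. The defining markers of intestinal differentiation were therefore near or at 0 in cells labelled Caco-2, and the HOX levels are given for these samples as labelled.

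Of the 39 HOX genes, 19 were at 1 TPM or more in every one of the 8 samples and are called on here. The share of all 19775 protein-coding entries that met the same condition was 57.9%. Another 12 genes were at 0.1 TPM or more in every sample without being on, 7 fell below 0.1 TPM in at least 1 sample, and HOXD12 was listed at 0 in all 8. In bulk RNA, fewer expressing cells and less RNA per cell cannot be told apart. The number on depended on the level chosen, with 31 genes at 0.1 TPM and 10 genes at 5 TPM.

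**Figure D1:**
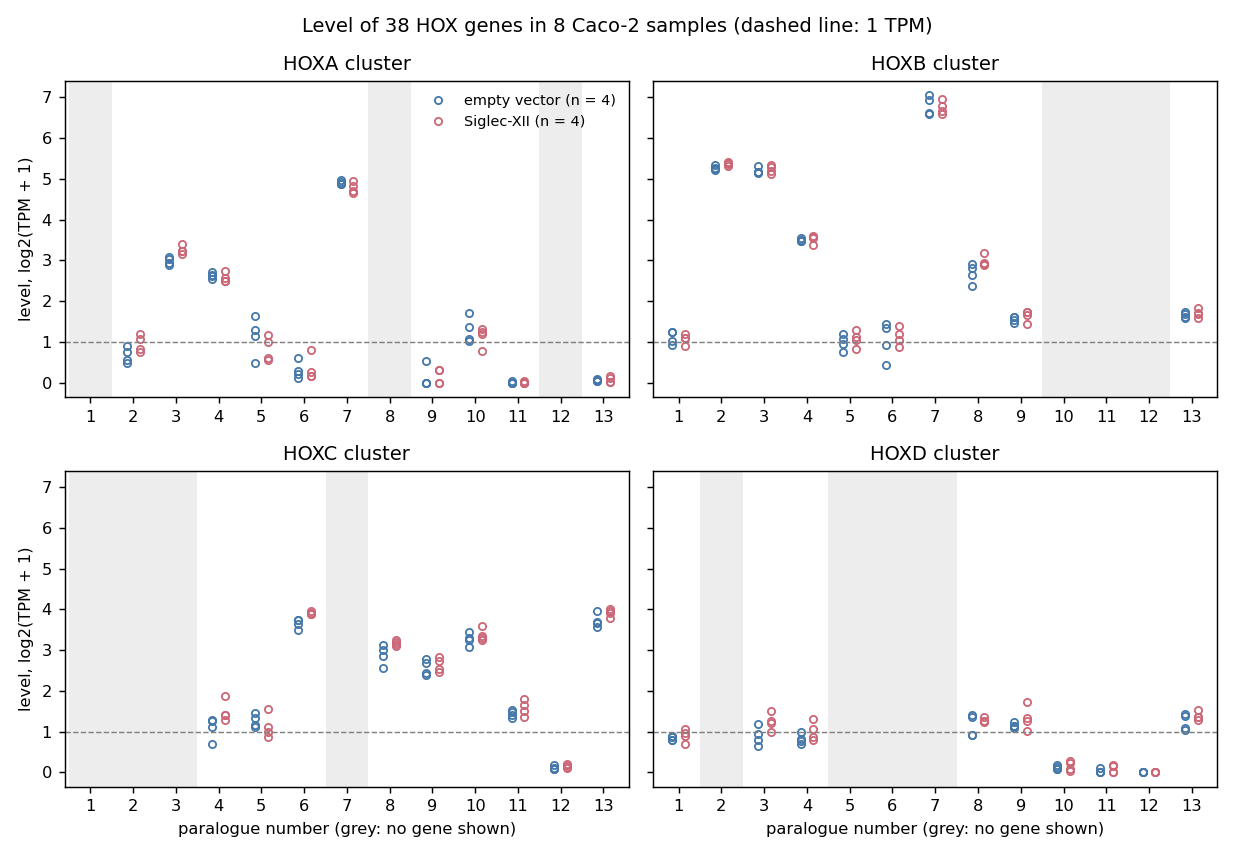
Level of 38 HOX genes as log2(TPM + 1) against its paralogue number, in 1 panel per cluster, with 1 point per sample, 4 of the empty vector in blue and 4 of Siglec-XII in red. The dashed line marks 1 TPM. HOXB7 stands highest in all 8 samples, genes of number 5 lie near the line, and both genes of number 12 lie near 0.

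The clusters differed in how much of them was in use. In HOXB (chromosome 17), 7 of 10 genes were on and none fell below 0.1 TPM in any sample. In HOXC (chromosome 12) 6 of 9 genes were on, in HOXA (chromosome 7) 4 of 11, and in HOXD (chromosome 2) 2 of 9. The summed level of the 10 HOXB genes was 60.3% to 66.1% of all HOX transcripts per sample, and HOXB7 alone was 29.2% to 38.2%. All 39 genes together summed to between 314 and 352 TPM in a sample.

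By position class, 4 of 8 anterior genes (paralogues 1 to 3), 7 of 15 central genes (4 to 8) and 8 of 16 posterior genes (9 to 13) were on. No gene of number 5 or 12 was on. The central genes summed to 188 ± 17.7 TPM with the empty vector and 187 ± 12.3 TPM with Siglec-XII (SD, n = 4). The anterior genes summed to 104 ± 2.80 and 110 ± 0.880 TPM, and the posterior genes to 36.1 ± 2.08 and 40.1 ± 1.61 TPM. The anterior sums, at 100.5 to 107 and 109 to 111 TPM, did not overlap between the groups, while the central and posterior sums did. On the log2 scale the anterior sums differed by 0.08, close to the median of 0.07 over all 15590 entries tested for a group difference. Of those single entries, 10.8% had groups that did not overlap.

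HOXB7 (ENSG00000260027, chromosome 17, 46684594 to 46710934, minus strand, GRCh37), a central HOX gene, was the most abundant. Its level was 131, 96.1, 122 and 97.2 TPM in the 4 empty vector samples and 109, 100.3, 123 and 95.7 TPM in the 4 Siglec-XII samples. The groups overlapped, and the spread inside the empty vector group covered all but 1 of the Siglec-XII values, the lowest. The anterior HOXB2 followed at 38.8 ± 1.97 TPM (SD, n = 8) and HOXB3 at 36.2 ± 2.21 TPM, 2 genes that act in patterning of the hindbrain and whose ranges overlapped.

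HOXA7 was at 27.9 ± 2.14 TPM (SD, n = 8). HOXC13, the most posterior HOXC gene and one known for its part in hair and nail formation, stood at 13.2 ± 1.63 TPM. HOXC6 at 12.8 ± 1.49 TPM and HOXB4 at 10.4 ± 0.550 TPM were also above 10 TPM on average. Below them came HOXC10 at 9.02 ± 1.06 TPM, HOXA3 at 7.76 ± 1.06 TPM, HOXC8 at 7.24 ± 1.18 TPM and HOXB8 at 6.20 ± 1.11 TPM.

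In the order of the 38 genes described singly, 4 of the 37 pairs of neighbours had ranges over the 8 samples that did not overlap: HOXB7 above HOXB2, HOXB3 above HOXA7, HOXA7 above HOXC13, and HOXA4 (5.09 ± 0.402 TPM) above HOXB13 (2.21 ± 0.190 TPM). The order of the genes from HOXC13 down to HOXA4 is therefore not resolved between neighbours. The other genes that were on lay at 2.21 TPM or less, and they were HOXB9, HOXC11, HOXD9 and HOXD13 beside HOXB13. HOXC4, at 1.50 ± 0.572 TPM, had a mean in the same range and was below 1 TPM in 1 sample.

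Within a paralogue number, 1 member usually carried most of the transcript. The member with the higher level was above the next one in every sample for 10 of the 12 numbers from 2 to 13, the exceptions being numbers 5 and 8. Number 7 had the largest sum, at 121 to 162 TPM per sample, and it is the number for which all members, HOXA7 and HOXB7, were on. The numbers 2 and 3 were carried by HOXB2 and HOXB3, and the numbers 9, 10, 11 and 13 by HOXC9, HOXC10, HOXC11 and HOXC13.

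Among the genes of number 13, which mark the end of the axis, HOXC13 was at 10.8 to 15.2 TPM, HOXB13 at 1.99 to 2.57 TPM, HOXD13 at 1.06 to 1.87 TPM and HOXA13 at 0.0109 to 0.130 TPM. HOXB13 is used in distal gut and prostate, and HOXA13 and HOXD13 in the hindgut, the genital region and the digits. HOXA13 was below HOXC13, HOXB13 and HOXD13 in every sample.

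The genes of number 5 stayed low in all clusters that hold one. HOXA5 was at 0.407 to 2.10 TPM, HOXB5 at 0.688 to 1.45 TPM and HOXC5 at 0.829 to 1.92 TPM. HOXC5 is uncertain, since 67.3% of its exonic bases are shared with other annotated genes on the same strand. HOXC12 reached at most 0.156 TPM and HOXD12 was listed at 0.

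**Figure D2:**
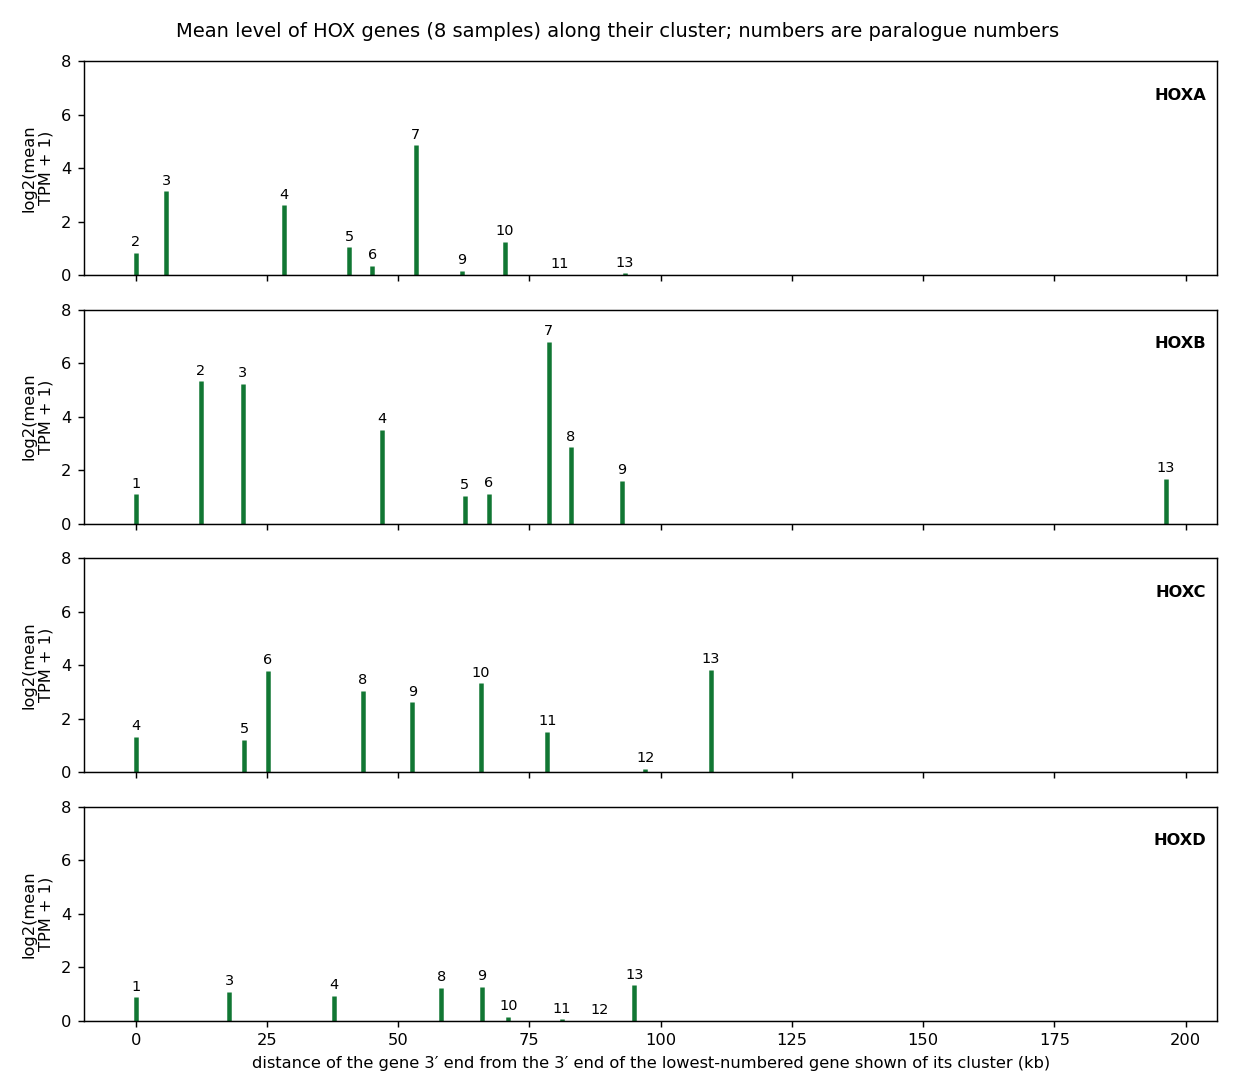
Mean level of 38 HOX genes over the 8 samples, as log2(mean TPM + 1), drawn at the distance in kb of its 3′ end from the 3′ end of the lowest-numbered gene shown of its cluster. The numbers above the bars are paralogue numbers. Stretches of higher and lower genes follow each other along HOXA and HOXB, and HOXA7 stands between HOXA6 and HOXA9, which are near 0.

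Levels changed sharply between genes that lie side by side. HOXA6, with its 3′ end 8.3 kb from that of HOXA7, averaged 0.268 TPM, a 104-fold lower level than HOXA7. HOXA9, 8.7 kb away on the other side, averaged 0.117 TPM, which is 239-fold lower. HOXA9 and HOXA10 are known for their part in blood cell precursors and, with HOXA11 and HOXA13, belong to the posterior end of the cluster. HOXA10 averaged 1.36 ± 0.465 TPM, while HOXA9, HOXA11 and HOXA13 did not reach 0.5 TPM in any sample.

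In HOXB, HOXB6 averaged 1.16 TPM beside HOXB7, a 93.8-fold difference over 11.5 kb. HOXB5 and HOXB6 formed a low stretch between HOXB4 and HOXB7. HOXB1, the gene at the anterior end, was at 0.883 to 1.36 TPM, and HOXB2 was 34.2-fold higher on average.

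In HOXC, HOXC6 to HOXC10 stood between 5.11 and 12.8 TPM on average, HOXC11 at 1.86 TPM and HOXC12 at 0.0989 TPM, and HOXC13 rose again to a 133-fold higher level than HOXC12, 12.4 kb away. HOXD was low throughout. HOXD1, HOXD3, HOXD4 and HOXD8 averaged 0.833, 1.13, 0.904 and 1.34 TPM, none of them at 1 TPM or more in every sample, and HOXD10 and HOXD11 averaged 0.101 and 0.0392 TPM. HOXD9 and HOXD13 were the HOXD genes that were on, at 1.04 to 2.29 TPM and 1.06 to 1.87 TPM.

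Exonic overlap bears on these values, because a read from shared bases can be divided among genes. Of the 39 genes, 15 share exonic bases with another gene on the same strand, 20 share bases with a gene on the opposite strand and 14 share none. Whether the authors' counting used strand is not given in the sources used here. HOXA7 shares 62.5% of its exonic bases with HOXA-AS3 on the opposite strand, and HOXA-AS3 was listed at no more than 0.191 TPM. HOXB7, HOXB8, HOXB9 and HOXB13 share none. HOXC4 shares 17.5% and HOXC6 16.1% on the same strand, with each other among others, so their levels are less certain.

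The promoters of 2 pairs of neighbours, each with a gene that was on beside one that was near or at 0, are shown because the change in level falls between genes a few kb apart. The RefSeq table of GRCh38.p14 held promoters for 20 of the 39 genes, at 27 start sites, 7 of them of HOXA3 and 1 listed for both HOXC4 and HOXC5. For 21 of the sites the bases just after the start occur in a GENCODE transcript of the gene, which need not start there. The 250 bases before the start are printed, with each CpG, the dinucleotide that carries DNA methylation, in capitals. HOXA6 lies at chr7:27147775-27148024 on the minus strand, HOXA7 at chr7:27156676-27156925 on the minus strand, HOXD12 at chr2:176099545-176099794 on the plus strand and HOXD13 at chr2:176092471-176092720 on the plus strand.
HOXA6: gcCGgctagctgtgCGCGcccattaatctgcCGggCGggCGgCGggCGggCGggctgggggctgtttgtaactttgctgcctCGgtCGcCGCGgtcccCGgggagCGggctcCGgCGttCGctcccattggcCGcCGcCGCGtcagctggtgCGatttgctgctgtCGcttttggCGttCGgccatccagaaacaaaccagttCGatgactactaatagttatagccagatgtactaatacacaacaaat
HOXA7: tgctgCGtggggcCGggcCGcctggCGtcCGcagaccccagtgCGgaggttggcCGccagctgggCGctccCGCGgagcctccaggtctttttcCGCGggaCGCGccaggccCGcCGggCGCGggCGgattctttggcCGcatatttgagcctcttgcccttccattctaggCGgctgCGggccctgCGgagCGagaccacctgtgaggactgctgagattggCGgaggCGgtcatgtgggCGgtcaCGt
HOXD12: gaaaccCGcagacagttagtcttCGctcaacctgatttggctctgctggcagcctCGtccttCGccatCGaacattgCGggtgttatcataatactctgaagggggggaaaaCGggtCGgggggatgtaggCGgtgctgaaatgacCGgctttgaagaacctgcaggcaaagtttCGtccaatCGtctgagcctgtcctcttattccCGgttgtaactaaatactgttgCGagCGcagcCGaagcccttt
HOXD13: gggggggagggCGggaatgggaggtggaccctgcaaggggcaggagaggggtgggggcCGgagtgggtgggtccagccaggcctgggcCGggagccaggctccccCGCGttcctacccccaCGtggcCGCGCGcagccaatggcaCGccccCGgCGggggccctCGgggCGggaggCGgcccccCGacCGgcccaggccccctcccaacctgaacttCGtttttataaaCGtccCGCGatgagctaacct

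The promoters of HOXA6, at 0.268 TPM on average, and HOXA7, at 27.9 TPM, held 27 and 28 CpG. Those of HOXD12, listed at 0, and HOXD13, on in every sample, held 16 and 21. Over the 27 HOX start sites the median was 19 CpG, against 11 over all 35116 promoters of the table. The one of HOXA13, a gene near 0, held the most of the 27, at 40. HOX promoters with many CpG were thus found beside genes that were on and genes that were near 0. The TATA box motif TATAAA, searched on both strands, was in 5 of the 27 (18.5%), among them HOXD13, HOXA9 and HOXA10, against 10.7% of all promoters. TTTATG, a site bound by Cdx proteins, was in 3 (11.1%), at HOXA3, HOXA9 and HOXD8, against 9.64%. DNA methylation and binding were not measured in these samples.

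Whether the HOX pattern differed between the empty vector and Siglec-XII was asked with limma on log2(TPM + 1). Of the 39 genes, 28 reached 1 TPM in at least 4 samples and were tested: 6 of HOXA, 10 of HOXB, 8 of HOXC and 4 of HOXD. At a Benjamini-Hochberg adjusted p under 0.05 over all 15590 entries tested, 0 of the 28 were called, where 0.648% of all entries (101) were. At an unadjusted p under 0.05 there were 3, HOXC6, HOXA3 and HOXC8, all higher with Siglec-XII, where 16.5% of all entries passed and 13.9% did so in the higher direction. The share of HOX genes was not above the background. When the samples were rescaled by quantile normalization, equal upper quartiles or centring on the median, HOXA7 passed in place of HOXC8. Its differences were then -0.20, -0.19 and -0.19, lower with Siglec-XII.

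**Figure D3:**
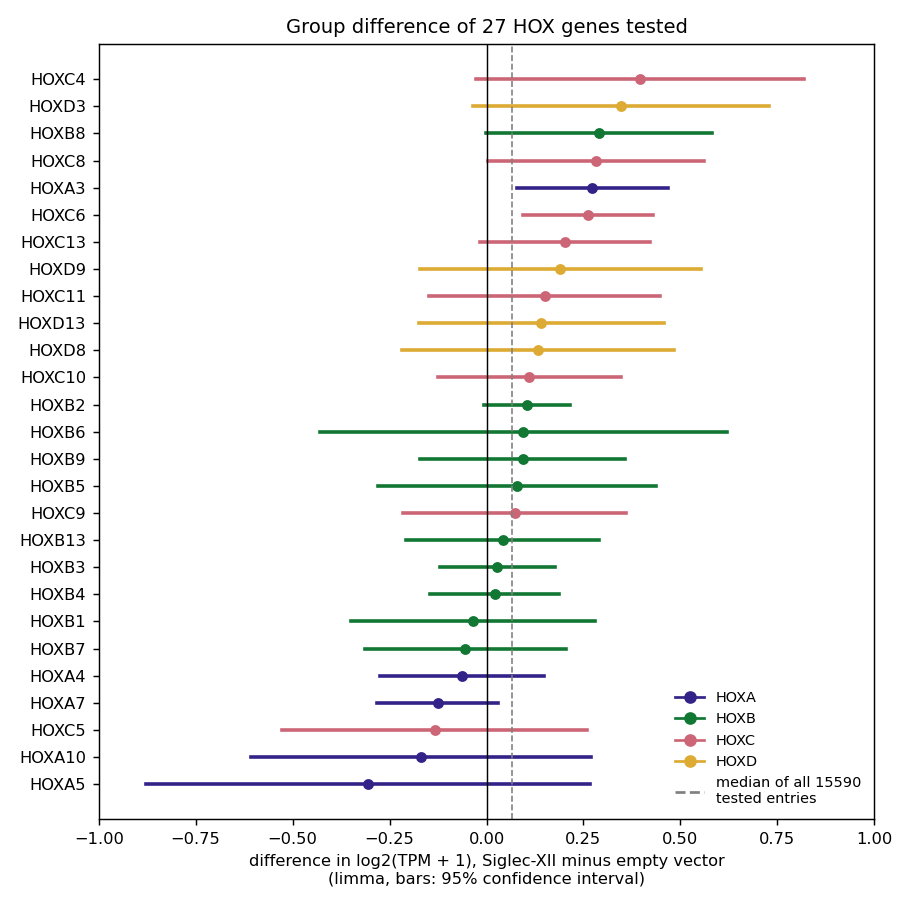
Difference in log2(TPM + 1), Siglec-XII minus empty vector, for 27 of the 28 HOX genes tested, with the 95% confidence interval from limma, coloured by cluster. The dashed line is the median of all 15590 tested entries, 0.07. The differences run from -0.31 for HOXA5 to 0.40 for HOXC4, and the intervals of HOXC6, HOXA3 and HOXC8 do not reach 0.

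HOXC6, a central gene of the trunk, was at 10.2, 11.4, 12.3 and 12.4 TPM with the empty vector and at 13.7, 14.6, 14.1 and 13.8 TPM with Siglec-XII. All 4 Siglec-XII samples were above all 4 empty vector samples. Its difference was 0.26 ± 0.07 (SE) on the log2(TPM + 1) scale, with a limma adjusted p of 0.149.

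HOXA3, which acts in the pharyngeal arches, thymus and parathyroid, was at 6.64, 6.44, 7.43 and 7.21 TPM with the empty vector and at 8.45, 8.32, 7.94 and 9.66 TPM with Siglec-XII. The groups did not overlap here either. Its difference was 0.27 ± 0.09 (SE), with a limma adjusted p of 0.181. HOXA3 shares 17.3% of its exonic bases with genes on the opposite strand. Groups without overlap were found for these 2 of the 28 HOX genes, where 10.8% of all tested entries had none and 9.17% had none in the higher direction.

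HOXC8, a gene of the thoracic region, was at 6.25, 7.03, 7.78 and 4.86 TPM with the empty vector and at 8.43, 7.84, 8.19 and 7.54 TPM with Siglec-XII. The lowest Siglec-XII sample was below the highest empty vector sample. Its difference was 0.28 ± 0.12 (SE), with a limma adjusted p of 0.299. It fell to 0.17 without empty vector replicate 4, the lowest sample, and it passed the unadjusted threshold in 5 of 17 alternatives. HOXB8, the gene of the same number in HOXB, was at 6.08, 6.48, 4.18 and 5.28 TPM with the empty vector. With Siglec-XII it was at 6.68, 6.36, 6.55 and 8.01 TPM, a difference of 0.29 ± 0.13 (SE) with a limma adjusted p of 0.306. Without empty vector replicate 3 that difference was 0.19.

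The larger differences among the weakly expressed genes were within wide intervals. HOXC4, with the highest estimate at 0.40, was at 0.609 to 1.46 TPM and 1.44 to 2.65 TPM in the groups, with an interval from -0.03 to 0.82, and 0.26 without empty vector replicate 2. HOXD3 was at 0.576 to 1.29 TPM and 0.986 to 1.82 TPM, with an interval from -0.04 to 0.73. HOXA5, with the lowest estimate at -0.31, was at 0.407 to 2.10 TPM and 0.463 to 1.24 TPM, with an interval from -0.88 to 0.27. Leaving out empty vector replicate 2 gave -0.14, and leaving out replicate 4 of that group gave -0.52 (limma adjusted p = 0.313).

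The differences of the 4 most abundant genes described singly were small, with intervals of unequal width. HOXB7 differed by -0.05 with an interval from -0.31 to 0.20, HOXB3 by 0.03 (-0.12 to 0.18) and HOXB2 by 0.11 (-0.01 to 0.22). HOXA7, at 28.4 to 30.4 TPM with the empty vector and 24.3 to 29.8 TPM with Siglec-XII, differed by -0.13 (-0.28 to 0.03). A difference of 1 on this scale, a 2-fold change of TPM + 1, lay outside the interval of all 28 genes, and a difference of 0.5 lay outside that of 19. With a pseudocount of 0.1 TPM, which understates the change of low genes less, the interval reached 1 or -1 for 5 genes, HOXA5, HOXA10, HOXB6, HOXC4 and HOXD3.

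The balance of directions was close to that of the table as a whole. With Siglec-XII the mean was higher for 21 of the 28 and lower for 7, that is 75% higher, against 68.1% of all tested entries, and their median difference was 0.09 against 0.07. When each sample was centred on its median (chosen after seeing the data), 17 of the 28 were higher and the medians were 0.03 for HOX genes and 0.01 for all entries. HOXB3, HOXB4 and HOXB13 were among those that turned lower. By cluster and without centring, 2 of 6 HOXA genes, 8 of 10 HOXB genes, 7 of 8 HOXC genes and all 4 HOXD genes tested had a higher mean with Siglec-XII. The medians were -0.09, 0.06, 0.18 and 0.17. With centring the HOXB count is smaller, since HOXB3, HOXB4 and HOXB13 turned lower.

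**Figure D4:**
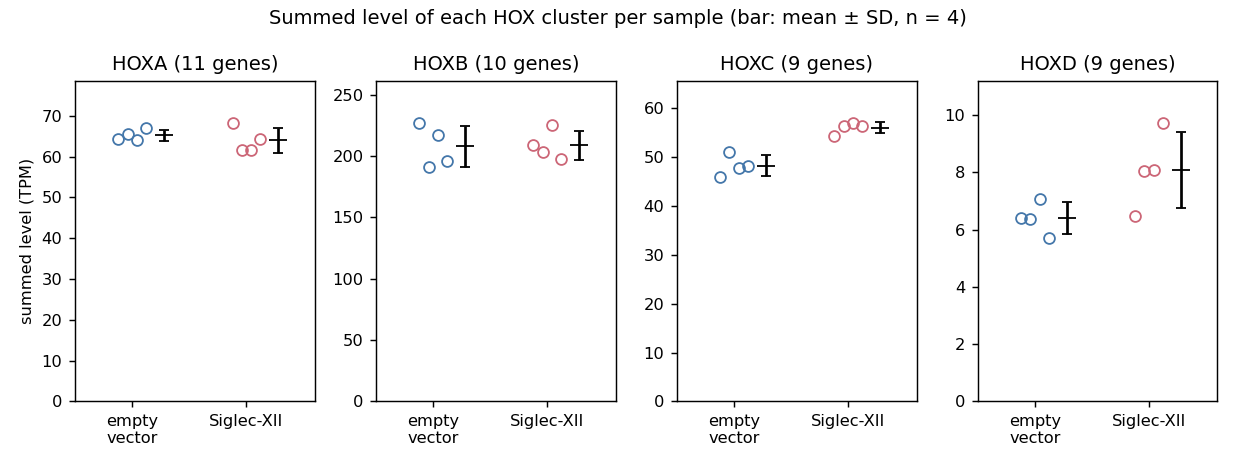
Summed level in TPM of the genes of each HOX cluster, with 1 open point per sample and the mean ± SD of each group (n = 4) as a bar beside it, on axes that start at 0. The HOXC sums of the Siglec-XII samples, 54.4 to 57.0 TPM, lie above those of the empty vector samples, 45.9 to 51.1 TPM. In the other clusters the groups overlap. Of single tested entries, 10.8% had groups that did not overlap.

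The summed levels gave the same picture per sample, as a description with no test. HOXA summed to 65.2 ± 1.31 TPM with the empty vector and 64.0 ± 3.14 TPM with Siglec-XII (SD, n = 4), and HOXB to 208 ± 17.0 and 209 ± 11.9 TPM. HOXC summed to 45.9, 51.1, 47.8 and 48.1 TPM with the empty vector and to 54.4, 56.4, 57.0 and 56.4 TPM with Siglec-XII, so that its groups did not overlap. On the log2 scale that was 0.21, against a median of 0.07 over the differences of all single entries tested. This HOXC difference was smaller with equal upper quartiles. HOXC was 1 of 4 cluster sums compared, and 10.8% of single tested entries had groups that did not overlap. HOXD summed to 6.39 ± 0.559 and 8.08 ± 1.34 TPM, with the highest value, 9.73 TPM, in Siglec-XII replicate 4. The same sample held the highest value of 13 of the 38 HOX genes that were above 0, among them HOXC4, HOXD3, HOXD4 and HOXD9. HOXA6, HOXA13, HOXD10 and HOXD11 were also among them, and each stayed below 1 TPM. The share of all entries that were highest in this sample was not counted, so nothing particular to HOX genes can be read from it.

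Summed marker levels are given beside these differences. The colon and trophoblast sums did not overlap between the groups, while the fibroblast and prostate sums did. Among single tested entries, 10.8% had groups that did not overlap. The summed level of the 13 colon markers was 4367 to 4804 TPM with the empty vector and 5276 to 5565 TPM with Siglec-XII, most of it KRT8. KRT8 alone averaged 3903 TPM with the empty vector and 4617 TPM with Siglec-XII. The 14 trophoblast markers summed to 2374 to 2415 and 2269 to 2301 TPM. The 8 fibroblast markers summed to 70.7 to 87.1 and 83.2 to 89.1 TPM, and the 5 prostate markers to 3.29 to 5.38 and 4.32 to 5.94 TPM. Their part in the HOX differences was not tested.

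The other genes of the HOX system are described by the same limma fit, in lists chosen with earlier results of these data known. None of their tested members passed an adjusted p under 0.05, so only levels and counts at an unadjusted p under 0.05 are given. The TALE cofactors, the DNA-binding partners of HOX proteins, were well represented: 7 of 9 were at 1 TPM or more in all 8 samples, with MEIS2 at 103 to 144 TPM and MEIS3 at 34.2 to 38.6 TPM. Of the 8 tested, 6 had a higher and 2 a lower mean with Siglec-XII, and PBX2 alone passed (limma adjusted p = 0.239). PBX2 stands on 7 entries of the table, so its level is uncertain, and their sum was 80.8 ± 2.57 and 84.5 ± 2.41 TPM (SD, n = 4).

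**Figure D5:**
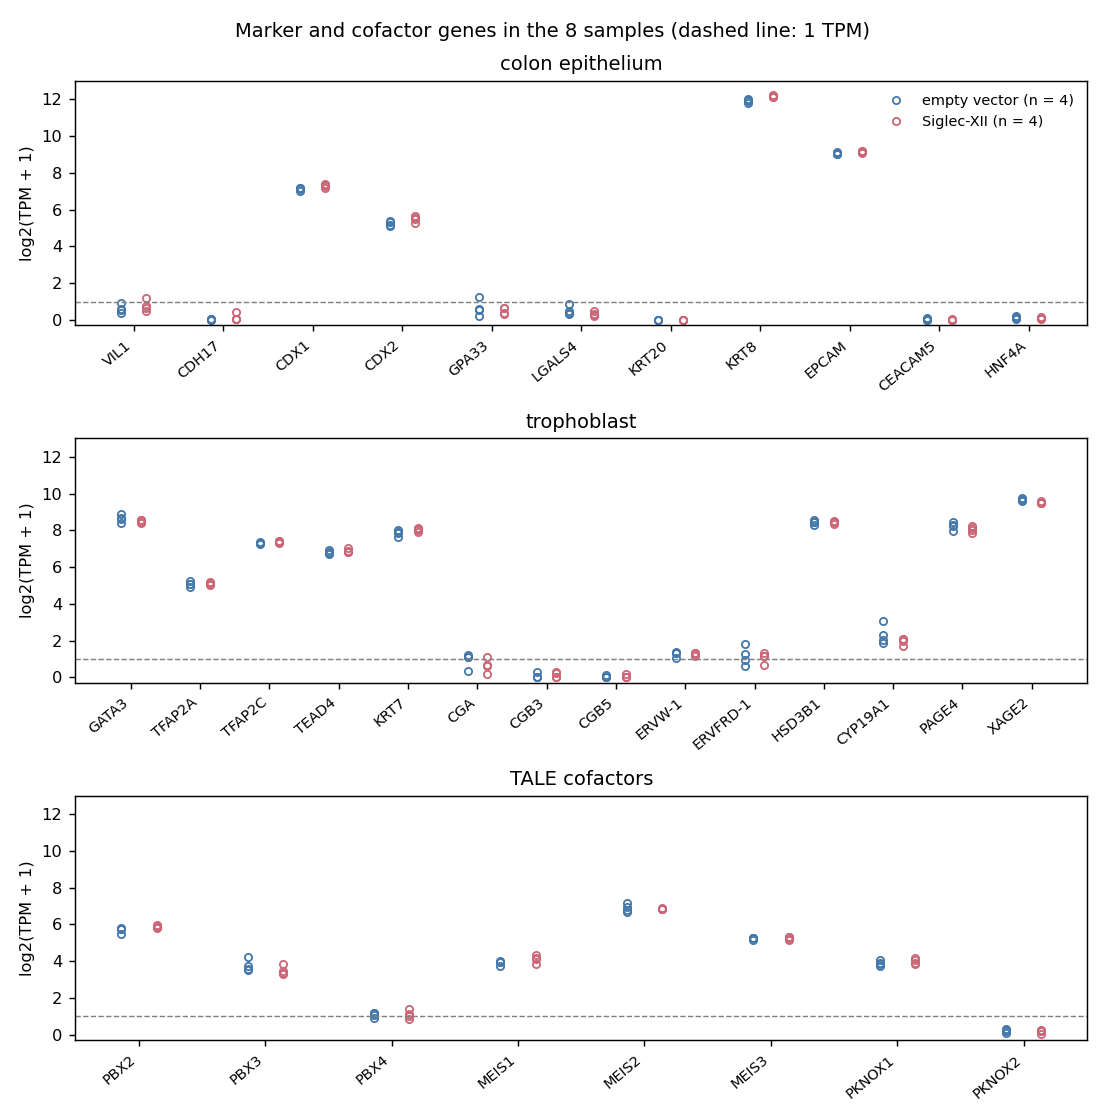
Level as log2(TPM + 1) of 11 colon epithelium markers, 14 trophoblast markers and 8 TALE cofactors, with 1 point per sample, 4 of the empty vector in blue and 4 of Siglec-XII in red, and a dashed line at 1 TPM. KRT20, CEACAM5, CDH17 and HNF4A lie near 0, while CDX1, CDX2, KRT8 and EPCAM lie far above the line, and 10 of 14 trophoblast markers are above it in every sample.

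Upstream of HOX, CDX1 and CDX2, homeobox genes of the hindgut that act on HOX clusters, were at 128 to 165 TPM and 34.0 to 48.8 TPM. Both had a higher mean with Siglec-XII at an unadjusted threshold, CDX1 by 0.17 (limma adjusted p = 0.202) and CDX2 by 0.23 (limma adjusted p = 0.252), and the groups of each overlapped. The pancreatic and duodenal gene PDX1 was at 2.05 to 2.97 TPM, while CDX4 and GSX2 were listed at 0. Of the retinoic acid genes, 11 of 16 were tested, 9 with a higher and 2 with a lower mean. The receptors RARG and RXRA and the degrading enzyme CYP26A1 passed the unadjusted threshold, all higher. Over all tested entries, 13.9% passed in that direction, and the median difference was 0.07. CRABP2, which carries retinoic acid in the cell, was at 385 to 507 TPM.

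All 11 Polycomb repressive complex 2 genes and all 12 of complex 1, which keep HOX genes silent, were tested, with 7 and 9 of them higher on average. JARID2 in the former and CBX6 and BMI1 in the latter passed the unadjusted threshold, all higher with Siglec-XII. The enzyme EZH2 was at 34.4 to 39.5 TPM. Of the 11 Trithorax and demethylase genes, which oppose Polycomb, 9 were higher on average and KMT2A, WDR5 and KDM6B passed, all higher. All 7 CTCF and cohesin genes, which shape the boundaries inside the clusters, had a higher mean with Siglec-XII and 0 passed. For comparison, the unadjusted threshold was passed by 16.5% of all entries. The directions moved with the scaling. With each sample centred on its median, the mean was higher for 4 of the 8 TALE cofactors, 5 of 11 retinoic acid genes, 5 of 11 and 5 of 12 Polycomb genes, 7 of 11 Trithorax genes and 3 of 7 CTCF and cohesin genes.

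Of the 28 noncoding and other genes that lie within the clusters, 26 had an entry and 7 were tested, with 3 higher and 4 lower on average and 0 past the unadjusted threshold. With each sample centred on its median, 1 of the 7 was higher. HOXB-AS3, an antisense RNA that overlaps HOXB3, HOXB5 and HOXB6, was the most abundant at 49.0 to 56.5 TPM, above the HOXB3 mean of 36.2 TPM in every sample. HOTAIRM1, within HOXA, was at 5.94 to 10.3 TPM, and HOXC13-AS beside HOXC13 at 5.24 to 7.14 TPM. HOTAIR, within HOXC, did not exceed 0.680 TPM and HOTTIP, at the HOXA13 end, 0.0905 TPM. The 6 microRNA hairpin genes, HOXA11-AS and HOXB-AS4 were listed at 0 in all 8 samples, and for the hairpins a library of longer RNA is not a measure of the mature microRNA. PRAC1 and PRAC2, which lie between HOXB9 and HOXB13 and are used in distal colon and prostate, did not exceed 0.449 and 0.441 TPM. EVX1 and EVX2, the homeobox genes beyond HOXA13 and HOXD13, did not exceed 0.0234 and 0.0567 TPM.

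In the list of gut position, GATA6, a factor of the endoderm, was at 25.0 ± 4.08 TPM with the empty vector and 31.0 ± 1.38 TPM with Siglec-XII (SD, 4 samples each), with a limma adjusted p of 0.204. GATA4, used in the upper intestine, was at 0.534 ± 0.300 and 0.806 ± 0.258 TPM (SD, n = 4), and the foregut gene SOX2 did not exceed 0.204 TPM.

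The spread of the HOX genes within groups is given beside that of all entries at the same level. For the 5 genes at 20 TPM or more, the median SD within groups on the log2 scale was 0.09, against 0.10 over 6393 entries, and for the 9 genes at 5 to under 20 TPM it was 0.14, against 0.15 over 4586 entries. The 2 genes at 2 to under 5 TPM had a smaller spread than most, 0.10 against 0.22 over 2581 entries. For the 12 genes at 1 to under 2 TPM it was 0.21, against 0.25 over 1865 entries.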

How the data were processed

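Per the labels, libraries were made from total RNA with a stranded kit that removes ribosomal RNA, while the methods of the study name a kit for mRNA. The labels list 4 samples per group, the description of the series fewer cultures, and the methods technical replicate libraries. The authors quantified reads with kallisto (version 0.45.0 in the submitters' processing notes) on hg19 and deposited log2(TPM + 1) per gene entry, used here as deposited. These log2 values are relative to the RNA of each sample and hold no depth, so no count test was run and no counting interval is given. limma 3.58.1 in R 4.3.3 (lmFit, eBayes with trend, two-sided, Benjamini-Hochberg) was run on the 15590 entries at 1 TPM or more in at least 4 samples, with the difference as Siglec-XII minus empty vector. In simulated data of the same size the fit called 91% of entries changed by 1 and 47% of those changed by 0.5 (log2). The changed entries were drawn from all tested entries, so these shares need not hold for HOX genes near 1 TPM. Positions and exons came from GENCODE lifted to GRCh37, in which 55485 entries had their gene ID, and promoters from RefSeq (GRCh38.p14). A permutation test planned for the cluster sums is not reported, since the members were chosen with earlier results of these data known, as were all gene and marker lists. Named genes are the 39 HOX genes, members of the lists, and SIGLEC12, but 5 of them are not reported here by name. Alternatives were a pseudocount of 0.1, other filters and scalings, no trend, array weights, a replicate block and leaving out each sample. Same-numbered samples did not deviate together (r from -0.07 to 0.06), so the numbers were not taken as pairs. Plots were made in Python 3.11.15 (matplotlib 3.10.9).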

Additional observations from a re-analysis of the deposited data

Results flagged for a closer look

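In 6 of the 88 groups of 4 values checked, 1 sample stood apart from the other 3 by more than Dixon's limit of 0.829 of the range. Chance flags about 1 in 20 groups of continuous values. Where the other 3 values are 0, any value above 0 is flagged whatever its size, so that rate does not apply to HOXA9, HOXA11 and HOXD11 below. HOXA6 had a log2(TPM + 1) of 0.79 in Siglec-XII replicate 4 (0.734 TPM), with the others at 0.16 to 0.25. HOXA9 had 0.53 in empty vector replicate 4 (0.446 TPM), with the others at 0. HOXA11 had 0.041 in empty vector replicate 3 and 0.047 in Siglec-XII replicate 1, and HOXD11 had 0.11 in empty vector replicate 2, each with the other samples of its group at 0. HOXD8 had 1.37 in Siglec-XII replicate 3 (1.58 TPM), with the others at 1.24 to 1.26. The first 5 of these values belong to genes that were not tested, and HOXD8 kept its direction without that sample.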

How the results depend on the processing

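Under all 17 alternatives 0 HOX genes passed an adjusted p under 0.05, and the lowest adjusted p ran from 0.118 to 0.291. Between 2 and 6 HOX genes passed the unadjusted threshold, HOXC6 and HOXA3 under every alternative and HOXA7, lower with Siglec-XII, under 4. Of the 27 differences described singly, 20 kept their direction wherever they could be fitted. The other 7 were near 0. With quantile normalization, equal upper quartiles and centring on the median, in that order, HOXB3 became -0.043, -0.032 and -0.032, HOXB4 -0.045, -0.035 and -0.039, and HOXB13 -0.0048, -0.0011 and -0.019. Leaving out 1 sample at a time gave -0.097 to 0.018 for HOXB1, -0.0054 to 0.068 for HOXB3, -0.0036 to 0.071 for HOXB4, -0.00091 to 0.16 for HOXB5, -0.10 to 0.23 for HOXB6, -0.12 to 0.027 for HOXB7 and -0.0036 to 0.082 for HOXB13. The genes on numbered 31 at 0.1 TPM and 10 at 5 TPM. The HOXA sum differed by -0.090 with equal upper quartiles, and the HOXC sum by 0.15 with equal upper quartiles and 0.15 as a mean of log2 values. Of all entries, 101 were called, 51 without the filter, 54 without the trend and 69 with the replicate block, which changed no call of a HOX gene, and not every sample correlated best with its own number. Without 1 sample the count ran from 40 (without empty vector replicate 3) to 154 (without empty vector replicate 2). The causes were not tested. With 4 samples per group and unknown depth, small differences in genes near 1 TPM could not be resolved.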
